A study of Mus musculus with 4 samples.

Results

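The regions described here are the 24765 stretches of mouse chromatin that the authors listed as differing in accessibility between other effector and regulatory T cells (Treg) of the inflamed lung. All rows of that list were taken, out of 92372 rows in the lists of all 6 pairs of populations, which merge into 52537 separate regions where they overlap by at least 1 bp. Accessibility was measured by ATAC-seq, in which a transposase cuts and tags open DNA. House dust mite extract was given through the nose for sensitization and challenge, an allergen model of asthma, and T helper cells were sorted at day 15. Other effector cells, the memory cells that are not Th2, were gated as CD3+ CD4+ CD44+ ST2- CD30L+, and Treg cells as CD3+ CD4+ CD25hi CD30L-, both from lung with airways. The other 2 populations were lung Th2 cells (CD3+ CD4+ CD44+ ST2+ CD30L+) and naive cells (CD3+ CD4+ CD44lo) from the mediastinal lymph node. Every population came from the same allergen model, with 3 biological replicates each and 1000 cells sorted from combined tissue, per the labels' protocols. The sources used here do not give strain, sex or age. The list holds a position and a fold for each region and no replicate value, read count or p-value, so the depth is unknown and the folds carry no error.

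Treg cells restrain immune responses and depend on the transcription factor Foxp3, on signals from interleukin-2 through CD25 and STAT5, and on receptors such as CTLA-4 and ICOS. In tissues a subset of them takes on an effector form with Batf, Irf4, Prdm1 and interleukin-10, and shares Gata3 and ST2 with Th2 cells. Effector memory cells that are not Th2 can include Th1, Th17 and follicular helper cells, among which Th1 cells are known by the factor T-bet (Tbx21) and follicular helper cells by Bcl6. Open chromatin at a gene start or an enhancer marks DNA that factors can reach, and does not by itself give the level of the transcript. CD25 (Il2ra), CD44, ST2 (Il1rl1) and CD30L (Tnfsf8) took part in the sort, so their regions describe the gates.

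Promoters under listed regions ran from poor to rich in CpG pairs, and 3 of each kind are shown as the 250 bases before a gene start, 5′ to 3′ on the gene's strand. They come from RefSeq (GRCm38.p6), and capitals mark matches to the 9 short motifs searched on both strands, which are spelled out with the motif counts. The first 3 belong to Tigit, an inhibitory receptor, Tnfrsf18 (GITR), a costimulatory receptor, and Hopx, a homeodomain protein. They hold 5, 4 and 8 CpG pairs over the promoter's full 300 bases. The other 3 belong to Tgfb1, a suppressive cytokine, Areg, the tissue repair factor amphiregulin, and Prdm1, the repressor Blimp-1. They hold 30, 21 and 20 CpG pairs.
Tigit: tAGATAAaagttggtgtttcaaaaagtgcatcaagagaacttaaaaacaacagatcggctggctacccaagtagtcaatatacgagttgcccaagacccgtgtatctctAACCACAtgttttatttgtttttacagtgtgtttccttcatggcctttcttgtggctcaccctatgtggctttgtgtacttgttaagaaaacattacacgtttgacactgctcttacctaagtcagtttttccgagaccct
Tnfrsf18: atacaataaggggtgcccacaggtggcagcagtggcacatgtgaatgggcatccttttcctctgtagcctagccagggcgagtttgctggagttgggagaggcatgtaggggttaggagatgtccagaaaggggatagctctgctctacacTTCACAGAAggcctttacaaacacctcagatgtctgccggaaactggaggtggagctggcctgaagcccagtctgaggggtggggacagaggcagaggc
Hopx: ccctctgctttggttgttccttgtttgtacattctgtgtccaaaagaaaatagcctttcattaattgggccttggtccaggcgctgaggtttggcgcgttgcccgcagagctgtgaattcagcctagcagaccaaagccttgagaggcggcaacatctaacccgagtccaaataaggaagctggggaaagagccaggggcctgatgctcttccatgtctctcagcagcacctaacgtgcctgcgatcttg
Tgfb1: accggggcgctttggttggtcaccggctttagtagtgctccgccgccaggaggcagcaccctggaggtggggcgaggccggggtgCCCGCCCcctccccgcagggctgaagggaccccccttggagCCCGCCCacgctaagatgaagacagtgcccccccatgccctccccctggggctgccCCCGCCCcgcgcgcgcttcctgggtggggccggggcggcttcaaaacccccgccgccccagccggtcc
Areg: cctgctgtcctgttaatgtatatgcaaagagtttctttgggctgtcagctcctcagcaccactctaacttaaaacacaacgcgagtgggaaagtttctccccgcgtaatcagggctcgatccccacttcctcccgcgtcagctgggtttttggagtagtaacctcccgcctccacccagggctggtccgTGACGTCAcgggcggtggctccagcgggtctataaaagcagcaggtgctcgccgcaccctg
Prdm1: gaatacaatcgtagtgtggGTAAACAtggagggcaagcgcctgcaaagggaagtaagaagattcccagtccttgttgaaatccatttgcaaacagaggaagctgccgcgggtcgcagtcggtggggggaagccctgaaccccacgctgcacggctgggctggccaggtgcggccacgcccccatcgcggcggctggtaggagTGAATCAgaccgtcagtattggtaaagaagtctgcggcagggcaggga

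The Tigit stretch is chr16:43664185-43664434 on the minus strand, under a region with a fold of -8.57, and holds 1 GATA and 1 RUNX match. The Tnfrsf18 stretch is chr4:156026072-156026321 on the plus strand, under a region with a fold of -6.79, and holds 1 STAT match. The Hopx stretch, chr5:77115124-77115373 on the minus strand, lay partly under a region with a fold of -8.11, which ended at 77115319, and held no match. Of the CpG-rich stretches, Tgfb1 (chr7:25686752-25687001, plus strand, fold -7.63) held 3 SP and KLF matches. Areg (chr5:91139349-91139598, plus strand, fold -6.22) held 1 CRE match, and Prdm1 (chr10:44458749-44458998, minus strand, fold -7.87) held 1 AP-1 and 1 forkhead match. The promoters shown thus all stood fully or partly under regions with folds beyond -6. Over all listed promoters the median was -5.95 with 3 to 8 CpG pairs and -6.48 with 17 to 24. A match is a description of letters, and binding was not measured.

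All 24765 regions were less accessible in other effector cells than in Treg cells, and none was more accessible. This was not particular to Treg cells. Other effector cells were also the lower population at all 17700 regions listed against naive cells and all 28175 listed against Th2 cells. Of the regions here, 11971 (48.3%) overlapped one listed as lower in other effector than Th2 cells. Each fold is the authors' own value from the authors' deposited table, read as log2 of other effector minus Treg. It ran from -3.48 to -14.06, with a median of -5.38 and quartiles of -6.46 and -4.54. On a linear scale the median is 41.6 times lower and the smallest difference 11.2 times lower. These are conversions of the folds only, since whether other effector cells had reads at these regions was not tested. At 702 regions (2.83%) the fold was -8 or beyond. The sources used here do not say whether regions were filtered by direction or by size. The regions were 150 to 3400 bp wide, with a median of 516 bp, and covered 14.9 Mb.

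**Figure D1:**
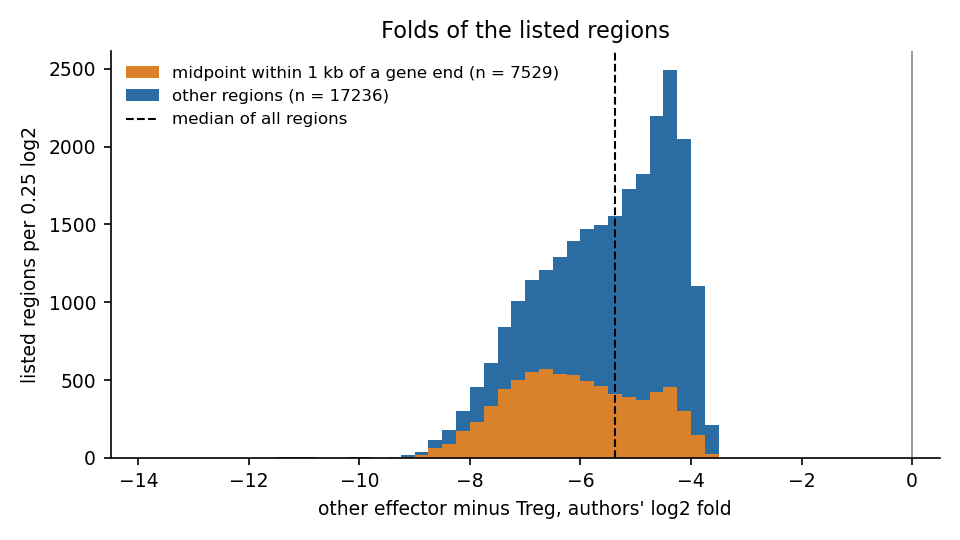
Histogram of the authors' log2 folds, other effector minus Treg, in steps of 0.25, stacked by whether the region's midpoint lies within 1 kb of a gene end (orange, 7529 regions) or not (blue); the dashed line is the median of all regions, -5.38. No region lies between -3.48 and 0, and regions near gene ends make up more of the left side.

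The direction rests on the order of the populations in the name of the table, and genes that define Treg cells were looked at in the other tables. The strongest Foxp3 region had a fold of -8.30 here, -8.47 for naive minus Treg and 5.65 for Treg minus Th2. The strongest region of Ikzf2 (Helios), a Treg factor, had -8.28, -8.45 and 8.46. Treg cells were the higher population each time. Every fold of this list is negative and the values share the same Treg cells, so they are not separate checks. Folds of Treg, other effector and either Th2 or naive cells met at 3 regions with the same coordinates in each of their tables. There they summed with a residual of 0.

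Folds at the same coordinates in a pair of tables give the difference of another pair, and these differences describe the scale on which the folds stand. At 2761 regions listed with the same coordinates for naive minus Treg cells, the implied difference between naive and other effector cells was -0.17, within 0.01, at 2411 (87.3%). The folds of those 2411 regions ran from -3.82 to -9.17, so naive and other effector cells stood at 1 fixed offset whatever the size of the fold. The same held against Th2 cells at 1760 regions, where 1326 (75.3%) had an implied Th2 minus other effector difference of -0.18 within 0.01 and none lay below that. By contrast, the implied Treg minus Th2 difference at 11971 regions had a median of 0.05, spread from -1.83 (5th percentile) to 1.75 (95th percentile), and at most 1.36% shared 1 value. Those 11971 regions were listed as lower in other effector cells than in Treg and in Th2 cells. The 2761 and 1760 were listed in other pairs of comparisons, so the sets were selected differently. Whether other effector cells had any reads at the regions with the fixed offset was not tested, since read counts were not used here.

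**Figure D2:**
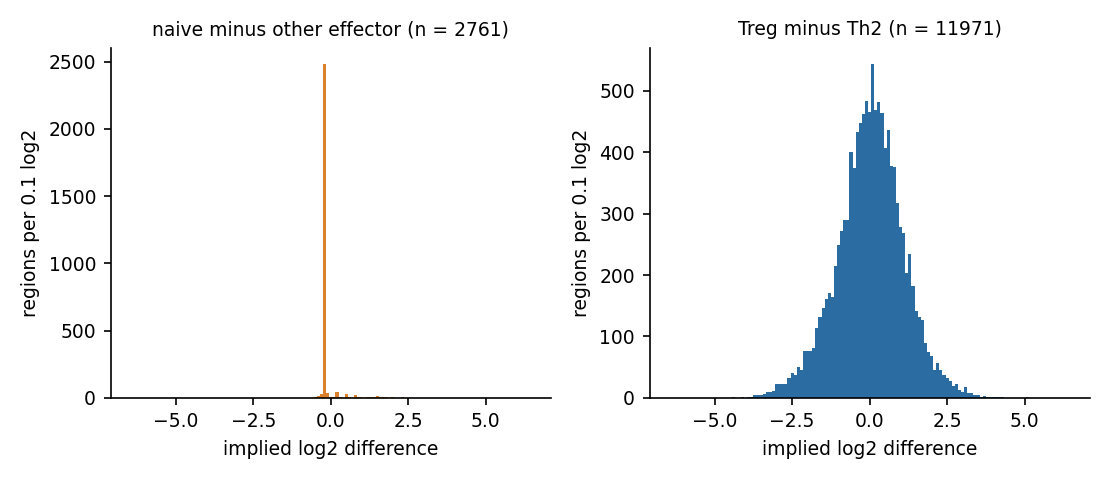
Implied log2 differences, in steps of 0.1, from folds at identical coordinates: naive minus other effector over 2761 regions (left, Treg cancels) and Treg minus Th2 over 11971 regions (right, other effector cancels). The left panel is a single spike at -0.17 and the right panel a broad peak around 0.05.

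Regions at gene starts had larger folds at the median than regions away from them. The distance from a start could be measured for 18819 regions, those assigned to a gene with an entry in the RefSeq promoter table. Of these, 6929 (36.8%, exact 95% interval 36.1% to 37.5%, counting error over regions only) had their midpoint within 1 kb of a gene start, with a median fold of -6.20 against -5.01 for the rest. The step was sharp: the median was -6.36 at 0 to 250 bp and -6.23 at 250 to 500 bp, then -5.12 at 500 to 1000 bp and -4.96 at 50 to 100 kb. By either gene end, which needs no strand, 7529 of all regions (30.4%) lay within 1 kb, with a median fold of -6.14 against -5.09. Inside a gene but over 1 kb from its ends lay 9821 regions (39.7%), and outside genes and over 1 kb away lay 7415 (29.9%). Near a gene end lay 354 of the 702 regions with folds of -8 or beyond (50.4%), and 18.6% of the regions with folds nearer to 0 than the median.

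Width moved with both. Regions within 1 kb of a gene end had a median width of 857 bp against 420 bp for the rest. At a width of 150 to 300 bp the median fold was -4.58 near a gene end and -4.54 away from one. It was -6.20 and -5.90 at 600 to 1000 bp, and -6.87 and -6.77 above that. At a like width the medians near and away from gene ends thus lay closer together than over all widths. The part of width in the folds was not tested further.

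**Figure D3:**
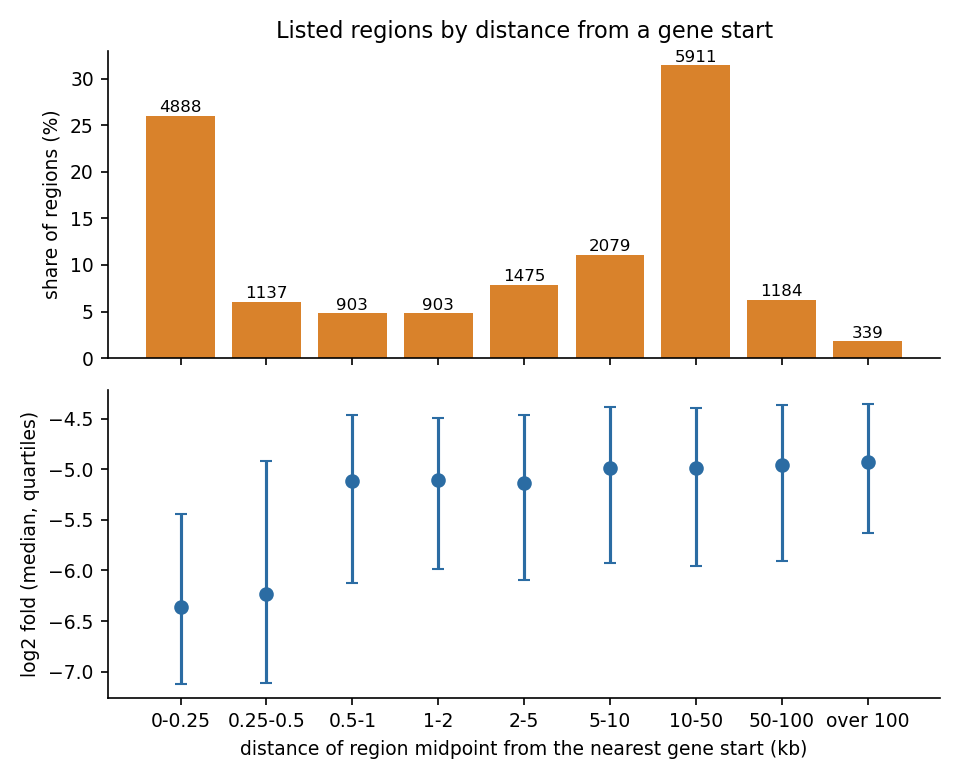
Share of 18819 regions (top, with counts above the bars) and median log2 fold with quartiles (bottom) by distance of the midpoint from the nearest gene start in kb; the distance steps are unequal. The 4888 regions within 0.25 kb of a start have a median of -6.36, and medians beyond 0.5 kb lie between -5.14 and -4.93.

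Promoters rich in CpG were the ones mostly listed. Of 32817 promoters, 8051 lay under a listed region, and their median CpG count was 23 against 5 for the others, with a GC content of 62.3% against 50.0%. The share under a listed region went from 1.63% of promoters with 0 to 2 CpG pairs to 57.6% of those with 25 or more. The median fold went with it, from -5.46 to -6.73. By gene, 6045 of 17492 protein-coding genes with a promoter entry had a listed promoter (34.6%).

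Motifs that hold a CpG were more frequent in listed promoters than in all promoters. The ETS motif ACTTCCGG was in 9.41% of listed promoters and 3.89% of all promoters of the same 300 bases. The CRE motif TGACGTCA stood at 3.78% and 1.79%, the NRF1 motif part GCATGCG at 7.35% and 3.57%, and the SP and KLF motif GGGCGGG at 51.2% and 25.6%. All 4 hold a CpG. The motifs with no CpG among their fixed letters were less frequent in listed promoters: AP-1 (TGANTCA) 4.36% against 7.81%, the motif AGATAA of GATA factors 5.49% against 11.2%, forkhead (TGTTTAC) 2.55% against 3.65%, RUNX (TGTGGTT) 3.69% against 5.27% and STAT (TTCNNNGAA) 6.50% against 8.29%. Whether these shares differ at equal CpG content was not tested. No motif searched holds another, and both strands were searched for each.

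Genes were given the regions that lay in them or nearest to them within 100 kb, which placed 23835 regions (96.2%) at 10477 of 21887 protein-coding genes (47.9%). Genes with a region were longer, with a median of 25648 bp against 10553 bp for genes without one. Most held few: 5483 genes had 1 region and 222 had 10 or more. The genes with most regions were Foxp1 with 34, Nsmce2 with 30, Prkch with 29, Akap13 and Atxn1 with 28 each, Ikzf2 and Wwox with 26, Rad51b and Rora with 25, and Chd2 and Rap1b with 23. Foxp1 is a factor of quiescent T cells, Prkch a protein kinase C, and Rora a nuclear receptor of tissue T cells. Counts go with how many regions a gene has in any table: Foxp1 had 34 listed regions beside 86 merged ones, Nsmce2 30 beside 37 and Ikzf2 26 beside 27. Per length of gene, regions inside were densest at Rinl (6 regions, 59.5 per 100 kb), Fxyd5 (5, 52.0 per 100 kb) and Bbc3, a promoter of cell death (5, 50.3 per 100 kb). Cd2, an adhesion receptor of T cells, had 5 inside (41.6 per 100 kb) and 12 more nearest to it.

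The 15 Treg transcription factors all had listed regions, 144 in total. Of the 242 merged regions at these genes, 58.3% were listed here, where 46.7% of all merged regions were. Their median fold was -5.32, close to the -5.38 of all regions. Foxp3, the defining factor of the lineage, had 5 regions, all inside the gene on chromosome X. Counted from its first annotated start, these lay at 0.51 kb (fold -4.16), 4.60 kb (-8.30), 6.64 kb (-5.26), 6.97 kb (-4.25) and 12.13 kb (-5.92). The strongest, at chrX:7583946-7584606, was 661 bp wide and the only Foxp3 region beyond -6.

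Helios and its relatives carried folds as large. Ikzf2 had 26 regions, with folds from -4.27 to -8.28, and Ikzf4 (Eos), a partner of Foxp3, had 5, the strongest being -8.58 at chr10:128636543-128637489 inside the gene. That Ikzf4 region also stood at 8.76 for Treg minus Th2. Ikzf3 (Aiolos) had 9, down to -7.67, and Ikzf1 (Ikaros), which all lymphocytes use, 4 of its 25 merged regions, none beyond -5.54. Of factors of effector Treg cells, Batf had 9 regions, with -7.67 at its start and -7.77 at 18.90 kb, Prdm1 9 with -7.87 at its start, and Irf4 8 with a strongest fold of -7.07. Rora had 25, down to -8.22, and Maf, a factor of interleukin-10 expression, 3 with -8.29. Gata3, the Th2 factor that tissue Treg cells also use, had 9, with -6.80 at its start and -7.11 at the strongest. Against Th2 cells other effector cells were also lower at Batf 18.90 kb (-8.26), the Prdm1 start (-7.48) and these Gata3 regions (-6.56 and -7.31). Those had no value for Treg minus Th2, while the strongest Irf4 region had 5.60. The Batf start and the strongest Rora and Maf regions had neither value.

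Surface receptors of Treg cells stood furthest above the background among the gene lists. All 20 genes had a region, and 147 of their 207 merged regions were listed (71.0%), with a median fold of -5.78. Against Th2 cells, 87 regions at these 20 genes were listed as lower in other effector cells. Ctla4, the inhibitory receptor that takes up costimulatory ligands, had 17, of which 10 lay upstream of its start. Those at -55.15, -33.70 and -21.81 kb from the start had folds of -7.89, -8.07 and -7.97, larger in size than any inside the gene, and no listed region lay over its promoter. The strongest of the 2 inside Ctla4 had a fold of -6.57. Icos, its neighbour and a costimulatory receptor, had 14, down to -7.52.

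Il2ra, the gene of CD25 and so part of the Treg gate, had 14 regions with folds from -4.50 to -7.44. The strongest lay 10.86 kb inside the gene at chr2:11653282-11654018, and the one over its start had -7.28. Tnfrsf9 (4-1BB), a costimulatory receptor, had 9, with the strongest fold of the list, -8.67, at chr4:150924257-150925246, 4.60 kb from its first start. Tigit had 9 with -8.57 at its start, and Klrg1, a receptor of terminally differentiated cells, 12 with folds from -5.04 to -8.41. Tnfrsf1b (TNF receptor 2) had 9 down to -8.41, and Il1r2, a decoy receptor for interleukin-1, 5 down to -7.96. Nrp1, a semaphorin receptor, had 11, but none beyond -5.15. Tnfrsf4 (OX40), Pdcd1 (PD-1) and Gpr83 had 1 each, with folds of -4.42, -6.36 and -5.78.

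**Figure D4:**
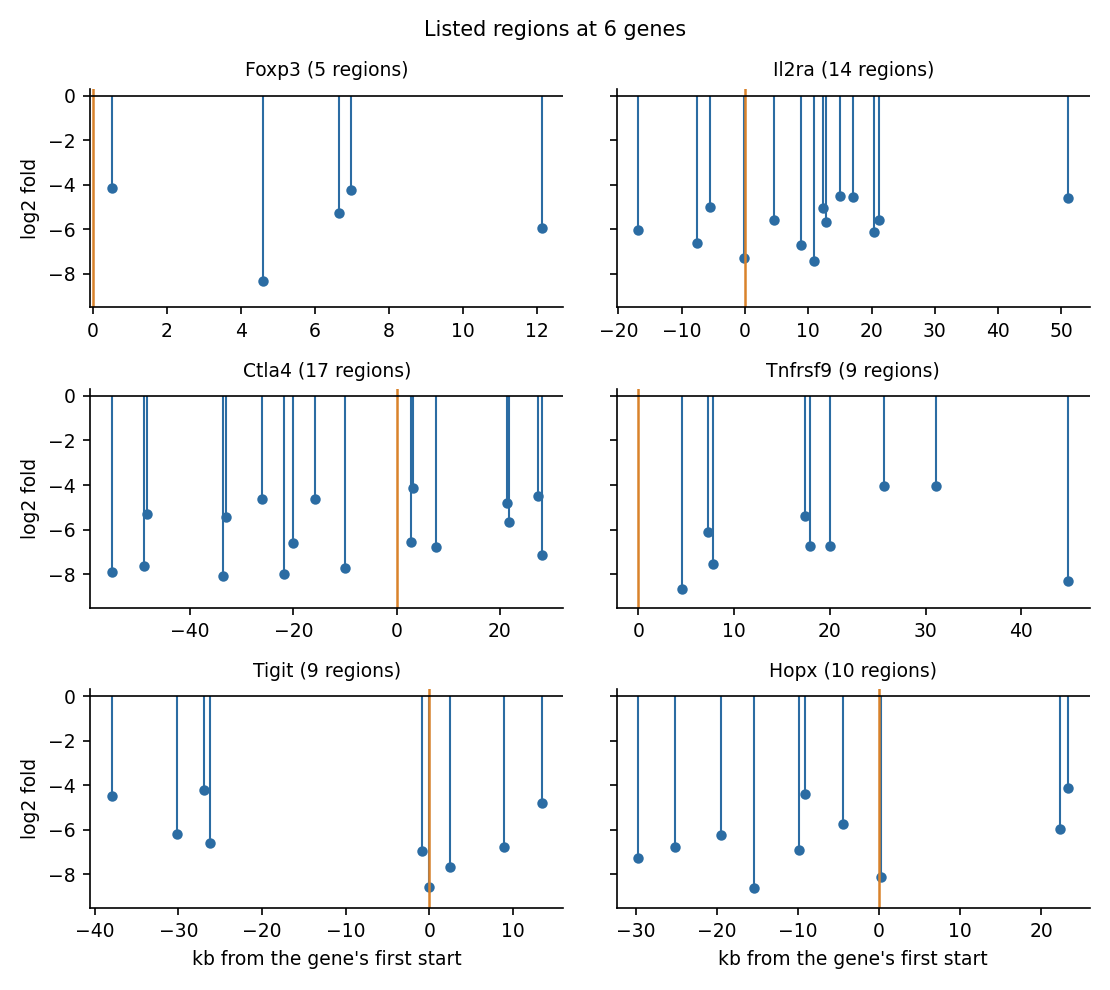
Each point is a listed region of Foxp3, Il2ra, Ctla4, Tnfrsf9, Tigit or Hopx, placed by the distance of its midpoint from the gene's first start in kb (negative is upstream; orange line is the start) and its log2 fold, other effector minus Treg. Foxp3 has 1 region beyond -6, Ctla4 has its largest folds upstream, and Tigit has -8.57 at the start.

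Genes for secreted Treg products had regions at 6 of 8, with 22 of 37 merged regions listed (59.5%) and a median fold of -6.55. Il10, the suppressive cytokine, held 10 of these, with folds from -4.40 to -7.75, of which 3 lay inside the gene. The strongest, at chr1:131003064-131003707, lay 16460 bp outside it. Areg had 3, at -6.22 over its start and -6.63 and -6.97 at -12.77 and -15.28 kb from it. Tgfb1 had 1, over its start (-7.63). Ebi3 and Fgl2 had no region assigned to them, though regions with folds of -4.96 and -6.87 lay over their promoters and were assigned to neighbouring genes. None of the 22 regions had a value for Treg minus Th2. Against Th2 cells, 16 regions at these 8 genes were listed as lower in other effector cells.

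The interleukin-2 receptor and STAT5 pathway had regions at 9 of 11 genes, with 39 of 81 merged regions (48.1%, near the 46.7% of all). Starts of the signalling genes were listed: Il2rg, the common gamma chain, -7.41, Jak3, its kinase, -7.59, Jak1 -6.91, Stat5a -7.35 and Stat5b -6.48. The median over all 8051 listed promoters was -6.49. For other effector minus Th2, the starts of Il2rg, Jak3 and Jak1 stood at -6.97, -5.60 and -7.74. Those of Stat5a and Stat5b had no such value. Il2rb had 6 regions, with -7.73 inside the gene. Of the pathway's inhibitors, Socs3 had -7.92 at its start and Cish 1 region of -4.12, while Socs1 had none. Il2, the cytokine itself, had none of its 5 merged regions listed.

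T cell identity genes were listed too. Regions stood at 17 of 19 genes of the T cell receptor complex and its signalling, with 112 of 230 merged regions (48.7%) and a median of -5.25, near the background. Cd2 and Bcl11b, a factor of T cell commitment, had 17 each, Ptprc (CD45) 11 and Prkcq 10. Cd5, an inhibitor of receptor signalling, reached -8.83, and Cd247 (CD3 zeta) -8.33. Cd3e had 2 regions and Cd3g 1, while Cd3d and Cd4 had none. Cd4, which both gates required, had no merged region assigned to it in any table.

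Genes that name other effector lineages were listed at shares near that of all regions, and their direction is fixed by the table, where every fold is negative. Of Th1 genes, 9 of 12 had a region, with 39 of 78 merged regions (50.0%) and a median of -6.01. T-bet (Tbx21) had 1, over its start (-5.30), and Ifng 5, all outside the gene, from -3.99 to -6.19. Stat4, the signal transducer of interleukin-12, had 9 with -7.62 at its start. Hopx had 10, the most of the list, with -8.11 at its start and -8.60 at -15.45 kb from it. Cxcr3, Il12rb2 and Eomes had none. At both Hopx regions Treg cells also stood above naive cells (-8.28 and -8.77) and above Th2 cells (8.29 and 6.28). The Tbx21 start likewise had -5.29 for naive minus Treg and 5.48 for Treg minus Th2. The Stat4 start had neither value, but -6.64 for other effector minus Th2.

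Of Th17 genes, 6 of 9 had a region (17 of 39 merged regions, 43.6%), with 1 each at Il17a (-6.36) and Il17f (-4.41). Of follicular helper genes, 7 of 9 did (39 of 72, 54.2%), with 14 at Tox down to -8.23, 5 at Cxcr5 and 4 at Bcl6. Il22, Il1r1, Il21, Sh2d1a and Cd40lg had none. The sort genes stood as follows: Tnfsf8, whose product CD30L the other effector gate required and the Treg gate excluded, had none of its 7 merged regions listed. Cd44, which the other effector gate required, had 13 regions lower in those cells, down to -8.06. The list of effector memory genes had 29 of 72 merged regions (40.3%), below the 46.7% of all, and Tnf, Il3 and Cxcr6 had none.

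Th2 genes had 59 listed regions at 15 of 17 genes, 43.4% of the list's 136 merged regions, near the 46.7% of all. Il1rl1 (ST2), absent from other effector cells by the gate, had 15 regions with folds down to -7.78, and Pparg, a lipid-sensing receptor, 9 with -6.48 at its start. At the Th2 cytokine locus Il5, Il13 and Rad50 had 1 each, with -5.98, -4.48 and -6.70, and Il4 had none. Stat6, the signal transducer of interleukin-4, had a region of 2317 bp over its start with -8.43, and Il4ra, the receptor, 7 with -7.34 at the start.

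Naive and quiescence genes were listed less than the background, with 115 regions at all 14 genes, 30.7% of their merged regions, and a median of -5.02. Foxp1 held 34, Bach2, a repressor of effector genes, 15, Foxo1 14 with -7.88 at its start, S1pr1, the receptor for exit from lymph nodes, 13 and Lef1 11. Satb1 had 3 of 31 merged regions and Tcf7 3 of 15. Ccr7, which guides cells to lymph nodes, had 4.

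Activation and signalling genes reached folds as large as any on the lists. AP-1, NF-kB, NFAT and early response genes had 114 regions at 21 of 22 genes, 53.0% of their merged regions, with a median of -5.83. The start of Nfkbia, the inhibitor of NF-kB, stood at -9.38, the region at chr12:55491738-55492957. Nfkb1 had 16 and Tnfaip3 15. Other starts were Nfkb2 at -8.57, Dusp1, a phosphatase induced by stress, at -8.47, Jun at -7.99, Rela at -7.80 and Fos at -7.40, while Relb had none. Against Th2 cells, 139 regions at these 22 genes were listed as lower in other effector cells. There the starts stood at -9.30 (Nfkbia), -8.11 (Nfkb2), -7.68 (Dusp1), -8.31 (Jun), -7.07 (Rela) and -8.09 (Fos). Of the TGF-beta pathway, 8 of 9 genes had a region and 35.4% of merged regions were listed, with Tgfbr2 at -8.20 over its start and none of the 28 merged regions of Tgfbr3.

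Homing receptors all had regions, 58 at 12 genes, with 63.3% of merged regions listed and a median of -5.53. Itgav, a subunit of integrins that activate TGF-beta, had 11, among them -9.17 and -9.16 at -23.47 and -28.77 kb from its start. Its partner Itgb8 had 6, with -8.21 at its start. Cxcr4 had 11 down to -8.54, Ccr4 6 and Ccr8, a receptor of tissue Treg cells, 2 with -7.91 at its start.

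Genes that all cells use were listed about as often as the Treg factors. Of 20 housekeeping genes 17 had a region, with 59.1% of merged regions listed, and the 16 regions within 1 kb of a gene end had a median of -6.92. Eef1a1 stood at -7.70, Ppia at -7.49, B2m at -7.34 and Tbp at -7.17, each over its start. Gapdh, Polr2a and Gusb had none. The list thus holds ordinary promoters beside Treg loci, and their part in the folds of Treg genes was not tested. Whether libraries of the 2 populations differed in depth or quality was not tested, since read counts were not used here.

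Markers of cells outside the gates were listed below the background share on 3 of 4 lists. Of B cell markers 4 of 9 genes had a region (5 regions, 14.3% of merged regions), of CD8 and natural killer markers 3 of 8 (6 regions, 30.0%) and of myeloid markers 5 of 10 (9 regions, 21.4%). None of their folds lay beyond -6.21. Cd79b, Ms4a1, Prf1, Gzma, Nkg7, Ncr1, Lyz2, Csf1r, Adgre1 and Itgax had none. Of epithelial, endothelial and fibroblast markers 9 of 14 had a region (21 regions, 51.2%), of which 12 were at Pecam1, a gene that T cells also express. Sftpc, Sftpb, Scgb1a1, Krt8 and Krt18 had none. In sum 11 of the 19 lists stood above the background share of 46.7%.

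**Figure D5:**
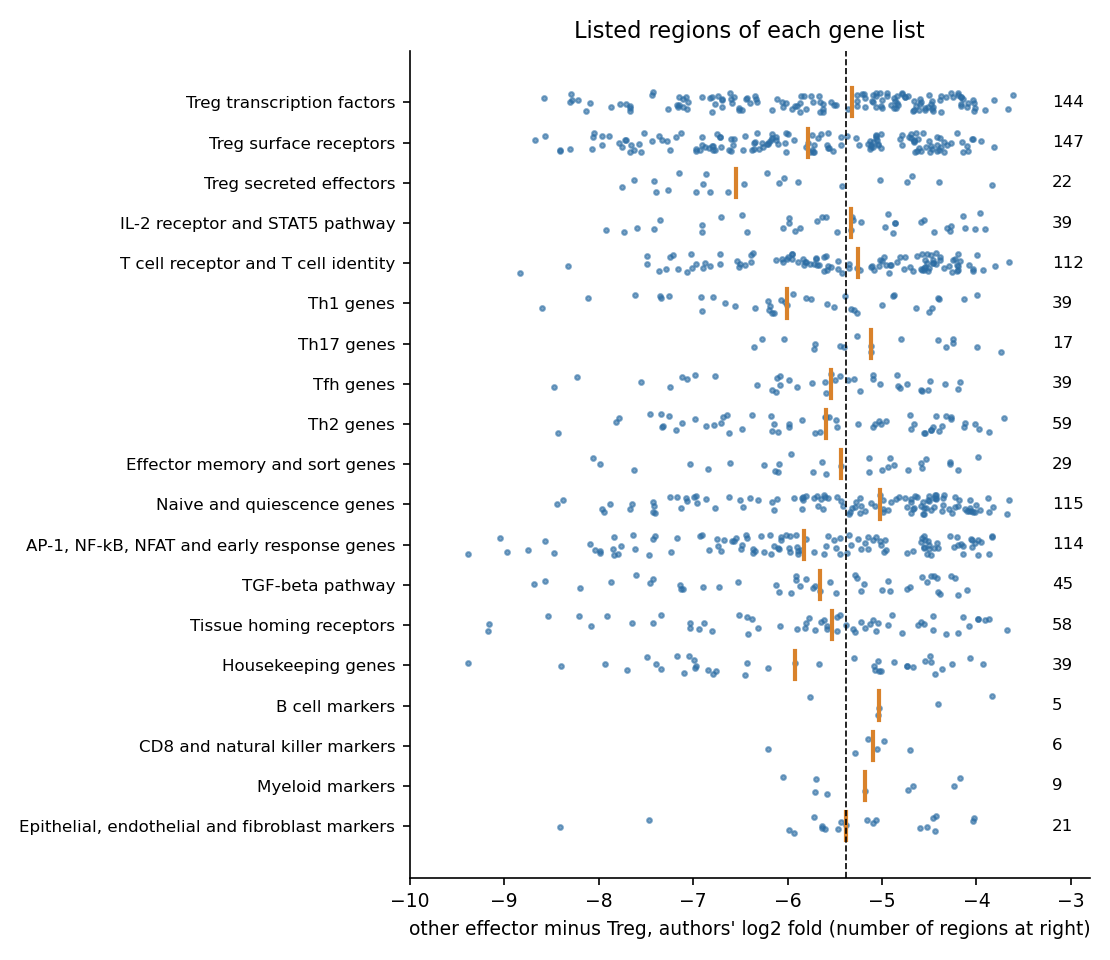
Each point is a listed region of a gene on the named list, by its log2 fold, other effector minus Treg; orange bars are list medians, the dashed line is the median of all regions (-5.38), and the numbers at right count regions. List medians run from -6.55 for secreted Treg effectors to -5.02 for naive and quiescence genes.

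Naive versus Th2 cells is the comparison that shares no population with this one, and its values at the listed regions were read side by side. At 1659 listed regions Th2 cells were higher than naive cells, and at 767 naive cells were higher. These are 6.70% and 3.10% of the listed regions, and the rows they overlap are 32.6% of the 5079 rows higher in Th2 and 15.0% of the 4837 higher in naive cells. Those row shares lie below the 46.7% of all merged regions listed here, a background that includes this comparison's own regions. The median fold of other effector minus Treg was -5.54 where Th2 cells were higher and -5.03 where naive cells were. The genes with most listed regions that were higher in Th2 than in naive cells were Il1rl1 and Niban1 with 9 each, Cdk6, a cell cycle kinase, with 8, and Myo1e with 7. Atxn1, Eed, Il10, Klrg1, Lamc1 and Pparg followed with 6 each. Higher in naive cells, Foxp1 led with 9.

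Listed regions clustered at some loci. In windows of 100 kb, Nsmce2 on chromosome 15 held 22 regions, the window of Ccr4 and Glb1 on chromosome 9 held 19, and 17 each lay at Il1rl1 with Il18r1 on chromosome 1, at Cd69 with Clec2d on chromosome 6 and at Ccr1 with Ccr1l1 on chromosome 9. Cd69 is an early activation antigen and Ccr1 a chemokine receptor. Among the widest regions, Klf13 held one of 2839 bp (-8.43), Tsc22d2 one of 2759 bp (-7.98) and Arid5b one of 2613 bp (-7.87).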

How the data were processed

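Per the submitters' processing notes, the authors used DiffBind (no version) and build mm9; the sources used here do not give aligner, peak caller, normalization, thresholds or library numbers. The deposited tables hold coordinates and a fold per region, which was read as log2, the scale of that tool. Coordinates fit GRCm38: 29.1% of midpoints lay within 1 kb of a RefSeq gene start (GRCm38.p6), against 3.11% to 4.28% after shifts of 10 to 1000 kb. The labels disagree on the day (title 15, some descriptions 10) and on the tissue of naive cells (protocol lymph node, source lung); titles and protocol were followed. A midpoint inside a gene, otherwise the nearest gene end within 100 kb, set each region's gene. Promoters span 250 bases before to 50 after a start; the table covers 17492 protein-coding genes and none on chromosome 18. Background is the 52537 regions merged over the 6 tables. All of them are listed somewhere, and a region can be listed in several of the tables.

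With no replicate values, no test across samples was made. Intervals are exact binomial. The regions, gene lists (19 lists, 248 genes, all matched) and the rule for named genes were chosen with earlier results of these data known: any list gene may be named, and beside them the genes with most regions, in total or per length, the strongest, weakest and widest regions and the fullest 100-kb windows. The placing of regions was tested on simulated data. Python 3.11.15, pandas 2.3.3 and scipy 1.17.1 were used. Some genes and part of a sort gate are not reported here.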

Additional observations from a re-analysis of the deposited data

How the results depend on the processing

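No paired analysis was possible because the tables hold no replicate values, and for the same reason no replicate could be left out. Keeping only folds at or beyond the median left 12405 regions, of which 42.2% lay within 1 kb of a gene end. Without the regions within 1 kb of a gene end the median fold was -5.09, against -5.38. The share near a gene end was 24.9% within 500 bp, 36.4% within 2 kb and 32.3% when the region's edge was used. With the region's midpoint inside the promoter, the ETS motif was in 10.6% of promoters. Of the 19 gene lists, 10 to 13 stood above the background share under the 4 other settings, against 11. Th2 genes rose above it in all 4, Th17 genes with every gene within 100 kb, and the interleukin-2 and T cell identity lists fell below it when only the stronger folds were kept. The number of listed regions with a value in another table was 17300, and 14960 when identical coordinates were required, a setting chosen after seeing the data. Depth limits every fold and is unknown.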

Other observations

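The largest folds lay outside genes. On chromosome 2, regions over 1 Mb from the nearest gene end (Lrrc4c) reached -14.06, and near Col19a1 on chromosome 1, in a segment known to be much like mitochondrial DNA, they reached -12.81. Inside genes the largest were -10.91 at Mid1, which borders the pseudoautosomal region of chromosome X, and -9.98 at Myo3a. A further 25 regions lay on 11 unplaced sequences, and the widest region, 3400 bp near Esp38 on chromosome 17, had -10.84. Whether reads map uniquely at these places was not tested.

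Ribosomal protein genes, a list added after the data were examined, had regions at 61 of 84 genes, with 65.2% of merged regions listed, against 46.7% of all. The 57 regions within 1 kb of a gene end had a median of -6.62, and the other 38 had -4.94.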
